A study of Mus musculus with 10 samples.

Results

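The zinc finger protein genes expressed in the liver of *db/db* mice were read from RNA-seq. The genes were chosen by name and by level: the symbol is Zfp followed by 3 digits, and the mean over the 10 libraries of the table is at least 1 CPM (reads of a gene scaled to a common library total, as deposited). Of 287 genes with such a symbol, 216 met the level and 71 did not, and the table holds 15126 genes in all. Since the level chose the genes, all levels are given as a description, with no test. The levels below are those of the 5 livers of the AAV8-Control group. Where genes are counted or grouped by a minimum or range of CPM, the mean over the 10 libraries was used.

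These mice were *db/db*, that is, leptin receptor deficient, obese and diabetic, and were 10 weeks old. They had received adeno-associated virus serotype 8 (AAV8) through the tail vein 5 weeks earlier, and the AAV8-Control virus encoded eGFP, a fluorescent protein that mice lack. The promoter in the vector is not given in the sources used here. The labels name liver as the tissue but also primary hepatocytes as the cell type, with a hepatocyte culture protocol; the methods describe liver, and the markers below include those of non-parenchymal cells. The paper calls such control mice littermates of the others, but which livers share a litter or cage is not stated, so the SD measures the spread between these libraries.

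Zinc finger proteins of the C2H2 kind hold a zinc ion in each finger with a pair of cysteines and a pair of histidines. Fingers in a row read DNA bases, and some bind RNA or protein instead. Many carry a KRAB box, which recruits the corepressor Trim28 (KAP1) and, through it, the histone methyltransferase Setdb1, and these proteins are known for silencing retroviral elements and for protecting imprinted marks. KRAB genes have multiplied by tandem duplication, so related copies sit side by side on a few chromosomes. Others carry a SCAN or a BTB domain, through which the proteins pair with each other, or no such box.

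Start regions are printed first for 4 genes, to show what lies at the start of the zinc finger genes with the most transcript. They are the 2 genes without a KRAB pattern and the 2 with one that had the highest level per kilobase in AAV8-Control livers. The regions are 300 bases each, from 250 before to 50 after the annotated start, taken from RefSeq in build GRCm38.p6 and written 5′ to 3′ on the strand of the gene. Capitals mark matches to any of 8 short motifs that were searched on both strands, the TATA box (TATAAA), the GC box of SP and KLF factors (GGGCGG), the ETS motif (CCGGAAG), YY1 (GCCATNTT), the E-box (CACGTG), CRE (TGACGTCA), a forkhead motif (TGTTTAC) and the CCAAT box (CCAAT). Matches of different motifs may share bases and were counted separately.
Zfp207, chr11:80383029-80383328, forward strand: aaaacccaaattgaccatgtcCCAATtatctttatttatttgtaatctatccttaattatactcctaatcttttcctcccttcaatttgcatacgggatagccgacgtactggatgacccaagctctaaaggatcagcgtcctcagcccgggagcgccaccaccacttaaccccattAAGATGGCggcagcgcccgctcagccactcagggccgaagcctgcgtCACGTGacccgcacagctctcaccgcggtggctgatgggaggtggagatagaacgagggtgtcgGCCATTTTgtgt
Zfp598, chr17:24669437-24669736, forward strand: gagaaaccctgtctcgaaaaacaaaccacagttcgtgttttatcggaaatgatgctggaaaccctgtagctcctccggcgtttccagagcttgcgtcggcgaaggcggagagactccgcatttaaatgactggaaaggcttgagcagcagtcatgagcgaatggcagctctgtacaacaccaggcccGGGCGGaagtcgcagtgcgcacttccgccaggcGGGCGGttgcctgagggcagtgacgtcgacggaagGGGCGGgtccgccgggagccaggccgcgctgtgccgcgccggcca
Zfp869, chr8:69716853-69717152, reverse strand: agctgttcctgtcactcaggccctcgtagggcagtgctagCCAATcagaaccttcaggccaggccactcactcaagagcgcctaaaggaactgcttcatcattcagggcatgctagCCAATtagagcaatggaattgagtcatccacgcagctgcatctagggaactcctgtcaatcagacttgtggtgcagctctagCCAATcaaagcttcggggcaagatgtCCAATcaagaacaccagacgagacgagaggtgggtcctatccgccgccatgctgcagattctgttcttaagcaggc
Zfp110, chr7:12834511-12834810, forward strand: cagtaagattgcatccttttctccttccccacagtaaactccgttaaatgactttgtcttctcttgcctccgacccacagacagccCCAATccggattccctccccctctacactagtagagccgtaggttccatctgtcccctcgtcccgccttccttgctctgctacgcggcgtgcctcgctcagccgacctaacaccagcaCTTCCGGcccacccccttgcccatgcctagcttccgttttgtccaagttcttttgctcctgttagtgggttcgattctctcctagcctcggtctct

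The region of *Zfp207* held 17 CpG pairs and 52.0% G and C, with 2 YY1 matches, 1 E-box and 1 CCAAT box. The region of *Zfp598* held 29 CpG pairs and 61.7% G and C, with 3 GC boxes and no other match. In *Zfp869* it held 8 CpG pairs and 4 CCAAT boxes, and in *Zfp110* 15 CpG pairs, 1 ETS match and 1 CCAAT box. None of the 4 held a TATA box.

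RefSeq regions were matched by symbol for 184 of the 216 genes, with 224 regions. They were set beside 11233 regions of the genes that reach the same minimum in these livers, and beside all 32851 regions of the table, which include genes that are not expressed in liver. Median CpG pairs per region were 16 for the zinc finger genes, 20 for the expressed genes and 7 for all genes. The CCAAT box was in 48.2% of the regions of zinc finger genes, 37.3% of those of expressed genes and 37.4% of all regions, and YY1 in 12.9%, 8.45% and 6.05%. The ETS motif was in 19.2%, 17.3% and 8.86%, and CRE in 3.57%, 2.97% and 1.79%. The GC box was in 49.6%, which is below the 61.9% of expressed genes and above the 35.7% of all regions. The TATA box was in 5.36%, 7.50% and 13.6%, the forkhead motif in 0.893%, 2.63% and 3.65%, and the E-box in 6.70%, 9.87% and 7.15%. For CpG pairs and the GC box, the zinc finger genes thus stood above all genes but below the expressed ones.

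Within the set, the start regions of genes with and without a KRAB pattern held different letters. The 113 regions of 97 KRAB genes had a median of 11 CpG pairs and 53.0% G and C, and the 111 regions of the other 87 genes had medians of 21 and 62.3%. The GC box was in 35.4% of KRAB gene regions and 64.0% of the others, and the CCAAT box in 59.3% and 36.9%. The ETS motif was in 22.1% and 16.2%, YY1 in 15.04% and 10.8%, and the TATA box in 5.31% and 5.41%. The E-box was in 9.73% of KRAB gene regions and 3.60% of the others, CRE in 4.42% and 2.70%, and the forkhead motif in 1.77% and 0%. These are letter matches, several regions belong to the same gene, and neighbouring duplicates share sequence, so the shares carry no test.

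Depth was between 19499795 and 35498596 reads in the 5 libraries, and 1 read was worth between 0.0282 and 0.0513 CPM. Every one of the 216 genes was detected in every AAV8-Control library, with at least 14 reads. The summed level of 8 hepatocyte markers was between 100833 and 136945 CPM, and markers of the other cells of liver were present as well. At least 1 CPM was reached by 8 of 8 Kupffer cell markers (sums of 116 to 237 CPM), 8 of 8 sinusoidal endothelial markers (138 to 278 CPM), 8 of 8 stellate cell markers (269 to 358 CPM), 4 of 6 cholangiocyte markers (33.5 to 54.0 CPM), 5 of 5 erythroid markers (262 to 327 CPM) and 6 of 8 cell cycle genes (15.3 to 18.3 CPM). None of the 8 lymphocyte markers in the table did, and their sums were 1.32 to 4.38 CPM. Which of these cells the zinc finger transcripts came from was not tested, and in bulk tissue fewer cells of a type cannot be told apart from less RNA per cell.

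The zinc finger genes were expressed at low levels. Their mean level in AAV8-Control livers had a median of 4.81 CPM and ranged from 1.002 to 87.0 CPM, while the median over all 11027 genes chosen by the same minimum was 16.0 CPM. Together the 216 genes made up 1806 ± 61.2 CPM (SD, n = 5), and the 8 genes with the highest mean over the 10 libraries gave 20.6% of that sum. Per kilobase of exon, which makes genes of unlike length more comparable, the median was 1.01 CPM per kb for the zinc finger genes, with quartiles of 0.542 and 2.21 CPM per kb. For all genes of that minimum it was 3.25 CPM per kb. The length joins the exons of all transcripts of a gene in GENCODE M21, while the paper names Ensembl release 76. Levels per kb, and rankings by them, are therefore approximate.

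The gene of highest level by both measures was *Zfp207* (ENSMUSG00000017421; chr11:80383279-80405733 of GRCm38, forward strand), whose protein binds Bub3 at kinetochores and also takes part in splicing. It stood at 73.5, 82.8, 80.8, 101 and 97.3 CPM in AAV8-Control livers 1 to 5, a mean of 87.0 ± 11.5 CPM (SD, n = 5) and 13.1 CPM per kb. Livers 4 and 5 were the high ones. *Zfp106* (ENSMUSG00000027288; chr2:120506820-120563843, reverse strand), an RNA-binding protein needed by motor neurons and muscle, was next in CPM. It varied less, at 63.2, 57.1, 61.0, 59.7 and 56.5 CPM, a mean of 59.5 ± 2.76 CPM, and no value of it reached the lowest of *Zfp207*. Of its 50-base words 24.6% also occur in a non-coding transcript of the same locus, Gm26899, so part of its reads may have been lost in counting.

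*Zfp706*, a small protein known from stem cell differentiation, was at 53.7, 49.0, 46.3, 46.2 and 57.0 CPM, a mean of 50.4 ± 4.79 CPM. *Zfp598* (ENSMUSG00000041130; chr17:24669687-24682016, forward strand), the ubiquitin ligase that recognises collided ribosomes, was at 50.7, 44.2, 46.5, 44.7 and 44.8 CPM, a mean of 46.2 ± 2.67 CPM. The values of these genes overlapped in CPM, and their levels per kb were 10.1 and 11.9 CPM per kb. *Zfp652*, a DNA-binding repressor, stood at 41.1 ± 4.47 CPM and *Zfp592* at 27.8 ± 1.59 CPM (SD, n = 5). *Zfp148*, which binds GC-rich promoters, was at 27.2 ± 2.78 CPM, and its values from 24.8 to 31.0 CPM overlapped those of *Zfp592* from 25.7 to 29.5 CPM.

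*Zfp395* (ENSMUSG00000034522; chr14:65358389-65398930, forward strand) was the least even of the 8 genes with the highest mean over the 10 libraries. It was at 50.1 CPM in AAV8-Control liver 1 and at 27.3, 32.7, 30.6 and 25.9 CPM in livers 2 to 5. Liver 1 stood apart from the others. The mean was 33.3 ± 9.73 CPM (SD, n = 5). In none of these 8 genes was a KRAB pattern found. In AAV8-Control livers alone *Zfp655*, named after values were seen, stood just above *Zfp592* and *Zfp148*, at 27.8 ± 3.09 CPM against 27.8 ± 1.59 and 27.2 ± 2.78 CPM (SD, n = 5), which is within their spread.

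**Figure D1:**
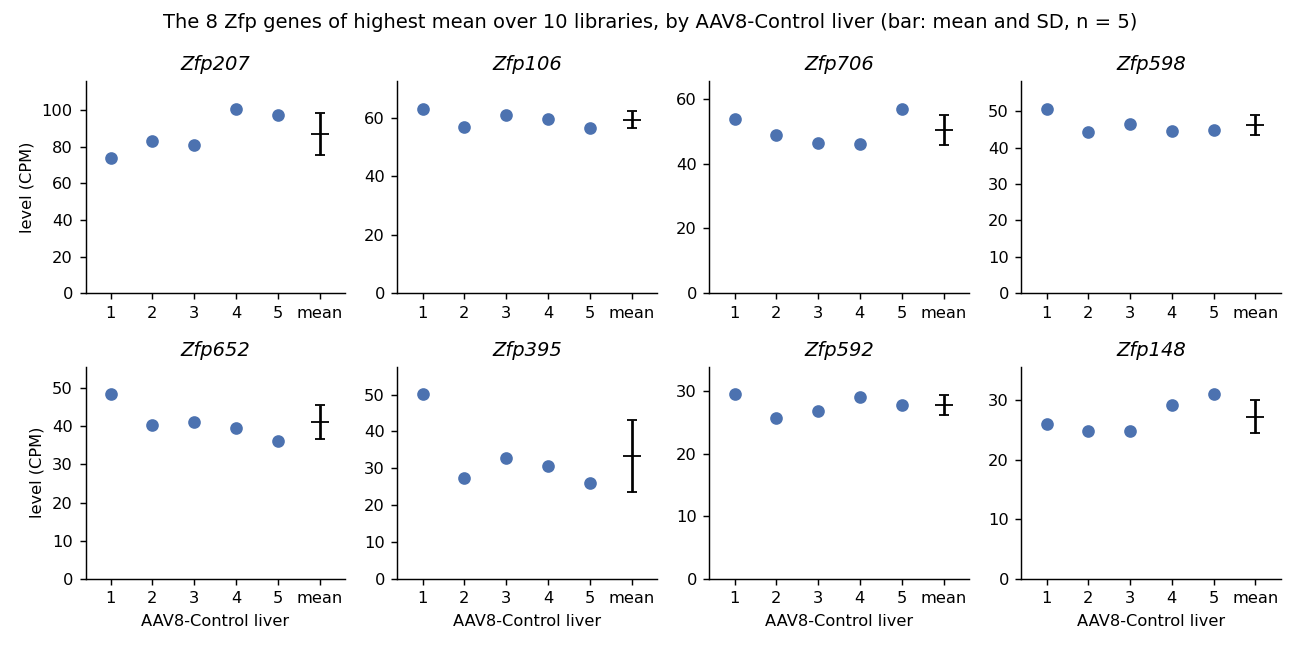
Level in CPM, in each AAV8-Control liver from 1 to 5, of the 8 zinc finger genes with the highest mean over the 10 libraries, with the mean and SD at the right of each panel (n = 5); axes start at 0. *Zfp106* and *Zfp598* are nearly level over the livers, and *Zfp395* stands at 50.1 CPM in liver 1 and at 32.7 CPM or less in the others.

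Per kilobase, the order was *Zfp207* (13.1 CPM per kb), *Zfp598* (11.9), *Zfp706* (10.1), *Zfp524* (8.02), *Zfp768* (8.00), *Zfp771* (7.56), *Zfp395* (7.04) and *Zfp467* (5.81). *Zfp524* (ENSMUSG00000051184; chr7:5014415-5018488, forward strand), which has 4 fingers, was the steadiest. Its level was 11.3, 11.7, 11.5, 11.3 and 11.6 CPM, a mean of 11.5 ± 0.186 CPM (SD, n = 5). That spread is smaller than counting alone would give on average, and 46.7% of its words also occur in transcripts of other genes, so its level is uncertain. *Zfp768* was at 20.2 ± 2.10 CPM, and *Zfp771* at 15.2 ± 2.54 CPM with its highest value, 19.6 CPM, in liver 1.

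At the threshold, the means over the 10 libraries that chose the genes were 1.11 CPM for *Zfp971*, 1.12 CPM for *Zfp112* and 1.13 CPM for *Zfp940*, just inside. Just outside were *Zfp984* at 0.974 CPM, *Zfp454* at 0.957 CPM and *Zfp202* at 0.951 CPM. No gene of this name lay between 0.974 and 1.11 CPM. Over the AAV8-Control livers alone the 3 inside were at 1.103 ± 0.330, 1.12 ± 0.175 and 1.11 ± 0.257 CPM, and the 3 outside at 1.02 ± 0.326, 0.969 ± 0.454 and 1.05 ± 0.313 CPM (SD, n = 5). The values of the genes on either side overlapped, so the edge of the set is set by the minimum and not by a gap in these livers.

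The proteins were described by translating the longest coding sequence of each gene in GENCODE M21 and searching it for patterns. A KRAB pattern was found in 104, a SCAN pattern in 7 more, a BTB pattern in 2, and none of these in 103. The search was by short patterns and misses some boxes. For example, none was found for *Zfp445*, which is known as a KRAB protein, so the genes without a KRAB pattern include some KRAB genes. The number of fingers per protein ranged from 0 to 37 with a median of 10, and 6 proteins had no finger of the pattern. KRAB proteins had a median of 12 fingers and the proteins with no box a median of 7.

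The KRAB genes had a lower median level than the others. It was 0.661 CPM per kb, with quartiles of 0.484 and 1.35 CPM per kb, and that of the 103 genes with no box found was 1.68 CPM per kb, with quartiles of 0.955 and 3.06 CPM per kb. The 7 SCAN genes had a median of 0.818 CPM per kb and the 2 BTB genes one of 1.29 CPM per kb. In sum the 104 KRAB genes made up 449 ± 17.6 CPM (SD, n = 5) of the 1806 CPM. The classes overlapped widely, from 0.161 to 5.78 CPM per kb for KRAB genes and from 0.189 to 13.1 CPM per kb for genes with no box.

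The KRAB genes of highest level per kb were *Zfp869*, *Zfp110* and *Zfp809*. *Zfp869* (ENSMUSG00000054648; chr8:69706332-69710724, reverse strand), with 13 fingers, was at 9.03, 9.24, 8.37, 9.91 and 9.38 CPM, a mean of 9.19 ± 0.563 CPM (SD, n = 5) and 5.78 CPM per kb. The RefSeq start region printed above lies upstream of this GENCODE span, so the start differs between the annotations, and the level per kb, which rests on a GENCODE exon length of 1590 bases, is uncertain. *Zfp110* (ENSMUSG00000058638; chr7:12834761-12850577, forward strand), a partner of the neurotrophin receptor p75, was the KRAB gene of highest level in CPM. It was at 18.8, 20.1, 20.7, 21.3 and 20.2 CPM, a mean of 20.2 ± 0.930 CPM and 4.91 CPM per kb. Both were nearly level over the 5 livers.

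**Figure D2:**
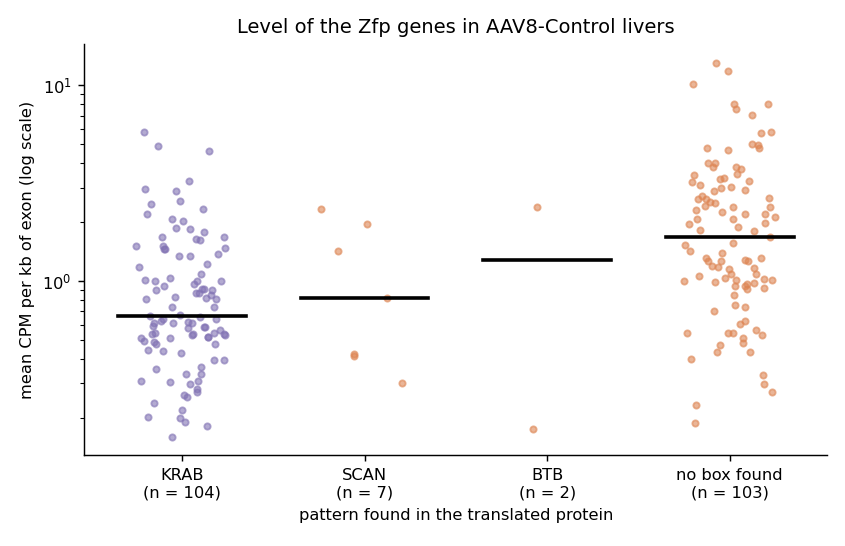
Mean level of each zinc finger gene over 5 AAV8-Control livers in CPM per kb of exon, on a log axis. Points are genes, grouped by the pattern found in the translated protein, and bars are medians; the KRAB genes sit at a median of 0.661 CPM per kb and those with no box found at 1.68 CPM per kb, with overlapping ranges.

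By place in the genome, 59 of the 216 genes lay on chromosome 7, 28 on chromosome 17 and 16 on chromosome 8. Of those on chromosome 7, 52 had another Zfp gene within 200 kb and 30 had a KRAB pattern, and on chromosome 17 it was 22 and 23 of 28. Over the whole set, 90 genes had 3 or more such neighbours, and 67 of these 90 had a KRAB pattern. Another 88 genes had no neighbour, of which 19 had a KRAB pattern. Only protein-coding genes named Zfp and a number were counted as neighbours, so related genes of other names were missed. *Zfp932*, for example, had 1 such neighbour, but 34.9% of its 50-base words also occur in Gm15446 on the same chromosome.

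Genes with 3 or more such neighbours had the lower median level, 0.910 CPM per kb, against 1.28 CPM per kb for those with none. Split by class, KRAB genes had medians of 0.667 CPM per kb with 3 or more neighbours and 0.814 CPM per kb with none, and genes without KRAB 1.18 and 1.57 CPM per kb. Grouped by fingers, the median was 1.81 CPM per kb in 37 genes with 4 or fewer, 1.35 CPM per kb in 63 with 5 to 9 and 0.686 CPM per kb in 116 with 10 or more. Class, position and number of fingers move together, and their parts in the level were not separated by a test.

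Sequence shared with another gene matters for counting, as reads were 50 bases long and only uniquely aligned ones were counted. In 41 genes, 21 of them with a KRAB pattern, over 10% of the 50-base words of the transcripts also occurred in transcripts of another gene. In some, the other gene is a related copy, as *Zfp968* is for *Zfp970* (24.4% of words). In others it is a gene of another kind on the same chromosome, as *Plcd4* for *Zfp142* (17.1%) and *Fanca* for *Zfp276* (12.7%). Levels of these 41 genes are uncertain, as are those of any other gene that overlaps a second one, since the library protocol does not mark strand. The median of the 41 genes was 0.924 CPM per kb, and that of the other 175 genes 1.06 CPM per kb.

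Between the 5 AAV8-Control livers the coefficient of variation (SD over mean) had a median of 13.3% over the zinc finger genes. The SD expected from counting error alone, over the mean, had a median of 9.46%. For 103 of the 216 genes, or 47.7%, the variance between livers was under 2 times the variance that counting gives, beside 29.2% of all genes of the minimum, which have higher levels. From 1 to 3 CPM it was 64.2% of the zinc finger genes and 51.4% of all genes, from 3 to 10 CPM 51.1% and 44.1%, from 10 to 30 CPM 27.8% and 30.6%, and from 30 to 100 CPM 0 of 7 and 11.4%. For such genes little of the spread could be told from counting at this depth. The zinc finger genes were set beside all genes of the same range, with ranges by the mean over the 10 libraries. From 1 to 3 CPM the median was 19.9% for 67 zinc finger genes and 21.6% for all genes, from 3 to 10 CPM it was 12.2% for 88 and 13.2% for all, from 10 to 30 CPM it was 10.2% for 54 and 9.09% for all, and from 30 to 100 CPM it was 9.49% for 7 and 7.99% for all. The zinc finger genes thus had the lower median in both ranges below 10 CPM and the higher one in both ranges above, and this was not tested.

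A coefficient of variation over 30% was found in 10 genes, 7 of them with a KRAB pattern and all at a mean of at most 2.44 CPM. Among the 61 genes with a mean over the 10 libraries of at least 10 CPM, those whose variance went furthest past counting were *Zfp395* (66.1 times the counting variance), *Zfp207* (36.0 times), *Zfp638* (21.02 times), *Zfp746* (18.3 times) and *Zfp710* (14.4 times). *Zfp638*, a nuclear protein that promotes fat cell differentiation and silences unintegrated retroviral DNA, was at 16.4, 15.8, 15.6, 24.2 and 22.4 CPM, with livers 4 and 5 above the other 3. *Zfp746* (PARIS), a repressor of the mitochondrial regulator PGC-1α, was at 23.0, 19.8, 23.2, 14.9 and 15.8 CPM, with livers 4 and 5 below the other 3. Kupffer cell markers split the livers as *Zfp746* did, with sums of 181, 237, 211, 140 and 116 CPM in livers 1 to 5 and 7 of the 8 markers lower in both livers 4 and 5 than in any other. So were 4 of 8 sinusoidal endothelial markers and 2 of 8 stellate cell markers, with 0 of either list higher in both. Of 8 hepatocyte markers, 3 were higher in both livers and 0 lower. Over the whole set, 42 of the 216 genes (19.4%) were lower in both livers 4 and 5 than in the other 3, and 40 (18.5%) higher, beside 19.1% and 13.9% of all genes of the minimum. This split of the livers was chosen after values were seen, and the part of the marker cells in these values was not tested. The least variable of the 61 were *Zfp524*, *Zfp523*, *Zfp358*, *Zfp644* and *Zfp384*, in all of which the variance was below that of counting.

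**Figure D3:**
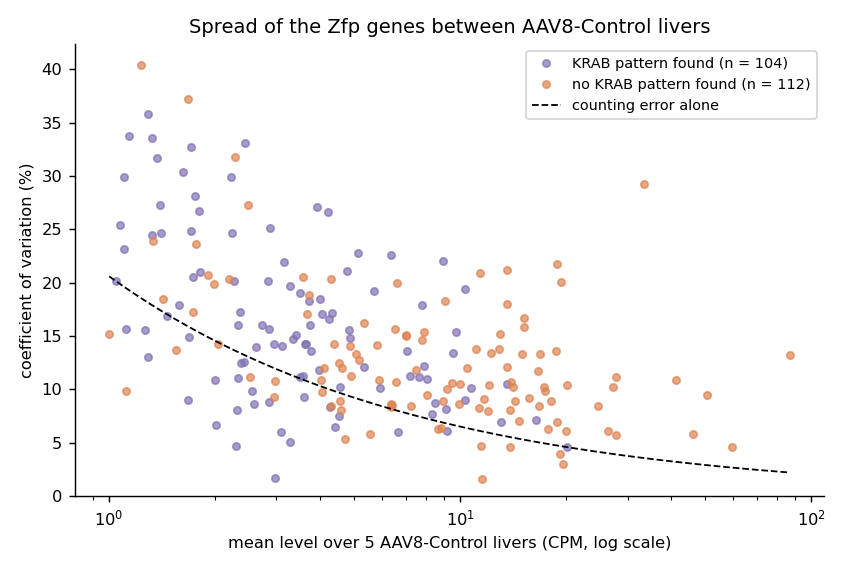
Coefficient of variation of each zinc finger gene between 5 AAV8-Control livers, in percent, against its mean level in CPM on a log axis, with KRAB genes and others in separate colours. The dashed line is the spread that counting alone gives; most genes lie above it, the median gene at 13.3%, and *Zfp395* stands at 29.2% at a level of 33.3 CPM.

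Members were also grouped by what they are known for. The lists used are not complete. From a list of 6 genes known in the silencing of retroviruses or imprinted genes, 5 were in the set. *Zfp638*, given above, was not on this list. *Zfp445*, which guards imprinting together with *Zfp57*, was highest in CPM, at 20.1, 20.0, 20.6, 18.2 and 21.6 CPM (20.1 ± 1.23 CPM, SD, n = 5). *Zfp809*, which silences retroviruses through the primer binding site for proline tRNA, was at 13.6 ± 1.43 CPM, and *Zfp568*, which silences a placental transcript of *Igf2*, at 10.7 ± 1.09 CPM. *Zfp961* was at 9.58 ± 1.28 CPM and *Zfp932* at 1.76 ± 0.497 CPM. Of the words of *Zfp932*, 37.0% occur in transcripts of other genes.

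A list of 9 genes known in fat or glucose metabolism held 7 members. *Zfp467*, which steers marrow cells towards fat, was at 28.3, 24.7, 23.0, 23.4 and 24.2 CPM, a mean of 24.7 ± 2.08 CPM and 5.81 CPM per kb. *Zfp217*, known as an oncogene product, and *Zfp407* were at 6.35 ± 0.546 and 6.59 ± 0.705 CPM. *Zfp423*, which commits cells to the fat lineage, was near the minimum at 1.64, 1.69, 1.86, 0.729 and 2.46 CPM (1.68 ± 0.623 CPM, SD, n = 5), from 20 to 66 reads. The others were *Zfp148*, *Zfp638* and *Zfp746*, given above.

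A list of 10 genes known in work on RNA or ribosomes held 8 members, with a median of 2.95 CPM per kb. Besides *Zfp207*, *Zfp106*, *Zfp598* and *Zfp638*, these were *Zfp622*, a ribosome assembly factor, at 17.3 ± 1.77 CPM, *Zfp326*, which couples splicing to transcription, at 9.47 ± 1.005 CPM, *Zfp830*, a splicing protein, at 5.54 ± 0.323 CPM and *Zfp346*, which binds double-stranded RNA, at 4.03 ± 0.394 CPM (SD, n = 5). *Zfp326* was at 7.69 CPM in liver 1 and between 9.73 and 10.1 CPM in the others. The medians of all 4 lists by role were above the 1.01 CPM per kb of the whole set. Besides this list, they were 2.21 CPM per kb for silencing, 1.19 for fat or glucose metabolism and 2.17 for gene regulators.

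A further list of known gene regulators held 20 members, with a median of 2.17 CPM per kb. After *Zfp652* and *Zfp592*, those of highest level in CPM were *Zfp384*, which binds A- and T-rich DNA, at 19.3 ± 0.763 CPM, and *Zfp281*, a factor of pluripotent stem cells that binds GC-rich DNA, at 18.9 ± 1.32 CPM. *Zfp219* (18.1 ± 1.62 CPM), *Zfp276* (17.8 ± 1.12 CPM), *Zfp318* (17.5 ± 1.73 CPM), *Zfp292* (15.2 ± 2.42 CPM), *Zfp687* (14.2 ± 1.46 CPM) and *Zfp644* (13.8 ± 0.634 CPM) followed. *Zfp410*, an activator of *Chd4*, was at 12.0 ± 0.957 CPM, *Zfp131*, 1 of the 2 BTB genes, at 11.1 ± 1.53 CPM and *Zfp335* at 10.5 ± 1.25 CPM. *Zfp143*, which binds promoters and the anchors of chromatin loops, was at 4.59 ± 0.370 CPM, and *Zfp503*, at 2.28 ± 0.725 CPM, was the lowest of these 20. Another 2 genes of the list, *Zfp462* and *Zfp202*, did not reach the minimum. Of the list, *Zfp263* and *Zfp202* are known to carry a KRAB box beside a SCAN box, and the search found only the SCAN pattern in *Zfp263*. The remaining 5, *Zfp263*, *Zfp362*, *Zfp451*, *Zfp653* and *Zfp703*, were between 4.53 and 8.83 CPM.

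The corepressor and silencing genes through which KRAB proteins act were read from a list of 31, of which 28 reached 1 CPM. Their median was 2.35 CPM per kb, above the 0.661 CPM per kb of the KRAB genes. *Trim28*, the corepressor that KRAB boxes bind, was at 43.7 ± 3.70 CPM and 10.5 CPM per kb, and *Setdb1*, which methylates lysine 9 of histone H3 at KRAB targets, at 17.3 ± 0.932 CPM and 2.52 CPM per kb (SD, n = 5). *Chd4*, a remodeller of the NuRD complex, was at 78.8 ± 10.2 CPM. *Dnmt1*, which copies DNA methylation, was at 8.36 ± 1.29 CPM, and 3 genes of the list, *Uhrf1*, *Suv39h2* and *Atf7ip2*, did not reach the minimum.

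Genes of related names were read in the same way. The median was 1.01 CPM per kb for 61 other genes whose symbol starts with Zfp in any other form, which need not be of the C2H2 kind. It was 1.23 CPM per kb for 37 *Zbtb* genes, which carry a BTB domain, and 1.60 CPM per kb for 16 *Zscan* and *Zkscan* genes. All were below the 3.25 CPM per kb of all genes.

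Liver by liver, AAV8-Control liver 1 gave the highest value of 78 of the 216 genes, or 36.1%, beside 37.8% of all genes of the minimum, so it stood high for both. The median deviation of log2(CPM + 1) from the mean over the livers was 0.061 there for the zinc finger genes and 0.064 for all genes. In the other livers it was between -0.026 and -0.0057 for the zinc finger genes. The median deviation of KRAB genes minus that of the others was -0.053, -0.019, -0.067, 0.098 and 0.00032 in livers 1 to 5, so the classes parted most in liver 4, where KRAB genes stood higher. Liver 4 also gave the lowest value of 31.6% of all genes of the minimum and of 23.1% of the zinc finger genes. All 8 sinusoidal endothelial markers were lowest there, with sums of 278, 197, 235, 138 and 191 CPM in livers 1 to 5. With 1 group of livers no test was made of this, and the part of the endothelial markers was not tested.

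**Figure D4:**
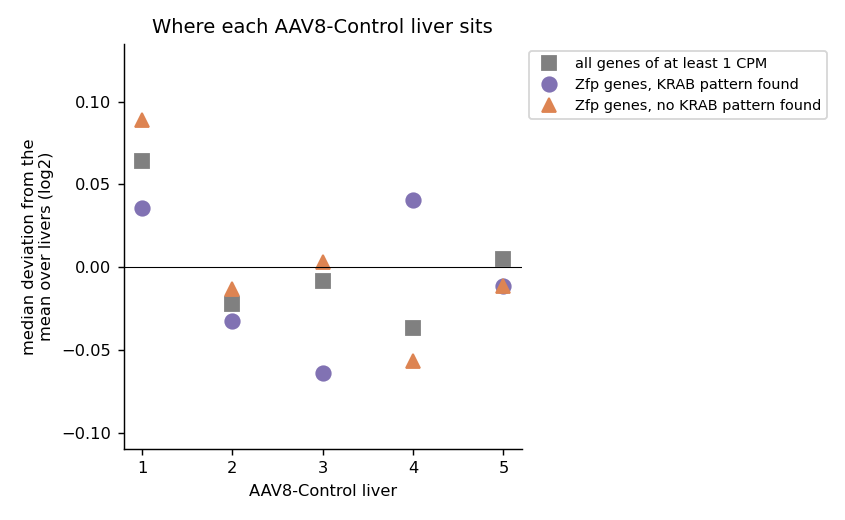
Median deviation of log2(CPM + 1) from each gene's mean over the 5 AAV8-Control livers, in each liver, for all genes of at least 1 CPM (squares), zinc finger genes with a KRAB pattern (circles) and those without (triangles). Liver 1 stands above 0 for all 3 sets, and in liver 4 the KRAB genes are at 0.041 and the others at -0.057.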

How the data were processed

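Liver RNA from *db/db* mice was sequenced (poly-A selected, single reads of 50 bases, strand not marked). The authors aligned reads with STAR 2.0.4b to GRCm38.p2 and counted uniquely aligned reads per gene with featureCounts 1.4.5, as the methods describe, with versions from the submitters' processing notes. The authors deposited CPM per gene, scaled to all reads counted on genes. Whole reads were recovered for 100% of AAV8-Control values (tolerance 0.01 read). Lines repeating a gene, 110 in number, were dropped. The AAV8-Control libraries were checked pairwise for duplicates, and none was found (lowest chi-square per degree of freedom 17.9).

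The planned comparison between groups, and the values of the libraries outside the AAV8-Control group, are not reported here; those libraries entered only the mean over 10 libraries that chose the genes. Means, SD and coefficients of variation were computed with Python 3.11.15 and pandas 2.3.3. The variance ratio was tried on simulated data for genes above 30 CPM only, where few of the zinc finger genes lie, so it was not tried at lower levels. Genes named are the 8 with the highest mean over the 10 libraries, 3 on either side of the threshold, and those of 4 lists by known role. Named after values were seen were the genes of highest level per kb, the KRAB genes of highest level per kb, the most and least variable genes, and *Zfp655*. The genes and lists were chosen with earlier results of these data known. Positions, exon lengths, coding sequences and shared 50-base words came from GENCODE M21, and start regions from RefSeq. Counting error covers the sampling of reads only.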

Additional observations from a re-analysis of the deposited data

Results flagged for a closer look

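For the genes named by level, threshold or known role and the summed level of the 216 genes, 53 groups of 5 AAV8-Control livers were examined for a liver far from the others, and 4 were found; chance gives about 1 in 20. All 4 concern AAV8-Control liver 1, which also gave the highest value of 37.8% of all genes of the minimum. The summed level contains the flagged genes, so the 4 are not independent. *Zfp395* was at 50.1 CPM there, with the nearest liver at 32.7 CPM, a gap of 0.717 of the range, above the critical value of 0.710. *Zfp771* was at 19.6 CPM with the nearest at 14.8 CPM (0.759 of the range), and *Zfp326* was lowest at 7.69 CPM with the nearest at 9.73 CPM (0.840). The summed level of the 216 genes was 1913 CPM and the nearest 1792 CPM (0.773).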

How the results depend on the processing

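The medians were recomputed without each AAV8-Control liver, with median-of-ratios size factors, with a minimum of 2 CPM in the mean over the 10 libraries (179 genes) and without the genes that share over 10% of their words (175 genes). These settings were chosen after seeing the data. With a liver left out, the median level ranged from 1.003 to 1.03 CPM per kb over the 216 genes, from 0.657 to 0.673 in KRAB genes and from 1.48 to 1.60 in the others, and the median coefficient of variation from 11.8% to 13.5%. With a minimum of 2 CPM, which leaves out the lowest genes, these values were 1.29, 0.910 and 1.95 CPM per kb and 11.7%. Without the genes that share words the median level was 1.06 CPM per kb. In every one of these settings, the median of KRAB genes was below that of the others. No paired analysis was possible because the results given are of 1 group, with no comparison between groups; the alternatives planned for such a comparison are left out with it. Depth limits the lowest genes, which rest on as few as 14 reads in a library.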
